A study of Mus musculus with 3 samples.

Results

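The genes that write, maintain and remove 5-methylcytosine were followed in CD4+ T cells before and after T cell receptor stimulation. The 7 genes were taken by symbol from the 31053 genes of the deposited feature tables, and all 7 were found: *Dnmt1*, *Dnmt3a*, *Dnmt3b*, *Uhrf1*, *Tet1*, *Tet2* and *Tet3*. The rule that lists them uses their symbols and no measured value. The data are 3 single-cell RNA libraries of naive-enriched CD4+ T cells from the spleens of C57BL/6 mice, sorted as 7AAD- CD3+ CD4+ cells. The unstimulated WT library (none) was kept in buffer, and the cells of the stimulated WT library (CD3/CD28) had spent 24 h with antibodies to CD3 and to CD28, each at 1 μg/mL. The stimulated IFT20-KO library had the same treatment and came from *Ift20* f/f mice with CD4 cre, in which the *Cd4* promoter drives the recombinase in T cells. The WT mice were *Ift20* f/f without Cre, so that the mice of all 3 libraries carried the floxed allele. In the CD4+ T cells of the IFT20-KO mice, Cre recombines it. Per the study's methods the mice were males of 5 to 10 weeks. No unstimulated IFT20-KO library was analysed here, so the response to stimulation cannot be compared between genotypes.

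DNA methylation in mammals sits mostly on the cytosine of CpG dinucleotides. DNMT3A and DNMT3B place new methyl groups, whereas UHRF1 binds hemimethylated CpG at the replication fork and brings in DNMT1, which copies the mark onto the new strand. The 3 TET enzymes oxidize 5-methylcytosine, and the oxidized bases are either diluted by replication or cut out by the glycosylase TDG and repaired. In T cells, DNMT1 and DNMT3A are known for keeping cytokine and lineage genes silent, and TET2 and TET3 for opening lineage genes such as the *Foxp3* enhancer.

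By the GENCODE M21 annotation of GRCm38, the sequence of the mm10 build named for the files, the maintenance genes are *Dnmt1* on chr9:20907209-20959888, minus strand, and *Uhrf1* on chr17:56303321-56323486, plus strand. The de novo genes are *Dnmt3a* on chr12:3806007-3914443 and *Dnmt3b* on chr2:153649450-153687730, both on the plus strand. The TET genes lie on the minus strand, *Tet1* on chr10:62804570-62908996, *Tet2* on chr3:133463679-133545139 and *Tet3* on chr6:83362373-83459084. The antisense genes *Dnmt3aos*, *Dnmt3bos* and *Gm42567* overlap *Dnmt3a*, *Dnmt3b* and *Tet2*, and in order had 0, 2 and 0 unique molecular identifiers (UMIs, each 1 captured RNA molecule) in the unstimulated library and at most 7 in any library. *B230319C09Rik* overlaps *Tet3* on the other strand. On the same strand, *5430434F05Rik* and *Mir6374* overlap *Tet3*, *Gm26479* and *Gm48353* overlap *Tet1*, and *Mir7081* overlaps *Dnmt1*. The UMIs of these genes are not reported here.

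Because *Dnmt1* and *Uhrf1* were the members that followed an S-phase gene list most closely, their promoter windows were read for letters that E2F factors, the regulators of S-phase genes, are known to bind. RefSeq (GRCm38.p6) gave 12 windows for the 7 genes, each of 250 bases before and 50 bases after an annotated start. The letters searched were TTTCCCGC, TTTCGCGC, TTTGCCGC and TTTGGCGC on both strands. The motif occurred in 1 of the 3 *Dnmt1* windows, at 2 places, in 1 of the 2 *Uhrf1* windows, and in none of the 7 windows of the other 5 genes. Of all 32851 windows of this length, 2.26% held it, and of the 3954 windows at least as rich in G and C, 3.72% did. A match describes the letters and does not show a bound site. The matching stretches are shown 5′ to 3′ on the strand of the gene, with the motif in capitals. The first lies at chr9:20952824-20952853 and the second at chr9:20952574-20952601, both overlapping an annotated exon of *Dnmt1*. The third, at chr17:56304117-56304146, overlaps no annotated exon of *Uhrf1*.
Dnmt1, 219 bases before the start: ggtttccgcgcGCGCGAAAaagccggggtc
Dnmt1, from base 34 after the start: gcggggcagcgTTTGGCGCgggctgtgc
Uhrf1, 185 bases before the start: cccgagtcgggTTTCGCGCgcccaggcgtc
The 250 bases before that *Uhrf1* start, chr17:56304063-56304312 on the plus strand, are given for context, with the same motif in capitals.
Uhrf1: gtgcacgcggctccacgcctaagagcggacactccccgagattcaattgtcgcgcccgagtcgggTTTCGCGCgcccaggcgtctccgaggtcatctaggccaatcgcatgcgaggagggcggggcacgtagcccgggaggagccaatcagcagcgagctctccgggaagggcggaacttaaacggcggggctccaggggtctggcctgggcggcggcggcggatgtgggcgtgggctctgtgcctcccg
The E-box CACGTG, read on both strands and not overlapping the E2F letters, was found in 1 window of *Dnmt3a* and in 7.15% of all windows. The windows of the members were themselves rich in the dinucleotide these enzymes act on. The window with the *Uhrf1* motif had 33 CpG, that with the *Dnmt1* motifs 33 and that of *Tet2* 57, against a median of 7 over all windows. Only the first *Dnmt1* window, with 2 CpG, fell below that median.

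Each group is 1 library, so nothing below could be tested against replicates. A level is the number of UMIs of a gene summed over the kept cells per 1000000 UMIs of the library (CPM), and every 95% interval covers counting error only. Barcodes with over 200 genes and less than 15% of their UMIs from mitochondrial genes numbered 8031 in unstimulated WT, 9903 in stimulated WT and 13920 in IFT20-KO, and held 37133949, 116979076 and 106435143 UMIs. Median depth was 4627, 12167 and 5014.5 UMIs per cell, and 33.1%, 23.2% and 47.8% of the cells had fewer than 4000 UMIs. From 1.01% to 2.01% of a library's barcodes also occurred in another library. *Ift20* was at 64.4, 76.0 and 6.60 CPM. The 6 CD4 T cell markers were present in every library at a summed 3560 to 3843 CPM. The B cell, myeloid and erythroid or platelet lists of 5 genes each summed to at most 3.34 CPM, with *Cd14* at 0 and the B cell gene *Ms4a1* at 0 or 1 UMI in each library, whereas the CD8 and NK list of 5 genes summed to 52.0 CPM in unstimulated WT, 9.83 in stimulated WT and 12.4 in IFT20-KO. Nearly all of that sum was *Cd8b1* (28.6, 9.04 and 11.2 CPM) and *Prf1* (23.0, 0.675 and 0.855 CPM), with *Cd8a* at 6 to 31 UMIs, and its part in the differences with stimulation was not tested.

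Maintenance and de novo methyltransferase transcripts were higher after stimulation of WT cells, and TET transcripts were lower as a fraction of the library, although as UMIs per cell *Tet2* and *Tet3* were higher. *Uhrf1* stood at 3.02 CPM (2.48 to 3.63) in unstimulated WT, 59.7 (58.3 to 61.1) in stimulated WT and 76.1 (74.5 to 77.8) in stimulated IFT20-KO cells. *Dnmt1* stood at 48.2, 125.4 and 156.4 CPM in the same order. Both maintenance genes were thus lowest in the unstimulated library, and highest in IFT20-KO cells in CPM but in stimulated WT cells as UMIs per cell, where *Dnmt1* had 1.48 in WT and 1.20 in IFT20-KO and *Uhrf1* 0.705 and 0.582. *Dnmt3a* was at 19.8, 55.2 and 67.7 CPM, and *Dnmt3b* at 6.09, 11.9 and 13.1 CPM. The stimulated libraries were closest for *Dnmt3b*, where their intervals of 11.3 to 12.6 and 12.5 to 13.9 CPM overlapped.

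*Tet3* had 88.1 CPM in unstimulated WT, 44.8 in stimulated WT and 60.1 in stimulated IFT20-KO cells. *Tet2* had 11.6, 7.67 and 11.9 CPM, so that in CPM the unstimulated and IFT20-KO libraries did not differ beyond counting error. *Tet1* had 7.81, 0.556 and 1.07 CPM, from 290, 65 and 114 UMIs. All 3 TET genes were thus lowest in stimulated WT as a fraction of the library, whereas as UMIs per cell *Tet2* and *Tet3* were lowest in the unstimulated library. Without correction for transcript length, *Tet3* supplied 81.9%, 84.5% and 82.3% of all TET UMIs, while the share of *Tet1* was 7.26%, 1.05% and 1.47%. Of the UMIs of all 7 genes together, the 4 writers (UHRF1 counted among them) held 41.8% (40.6% to 42.9%) before stimulation, 82.6% (82.2% to 83.0%) after it in WT and 81.1% (80.7% to 81.5%) in IFT20-KO cells.

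**Figure D1:**
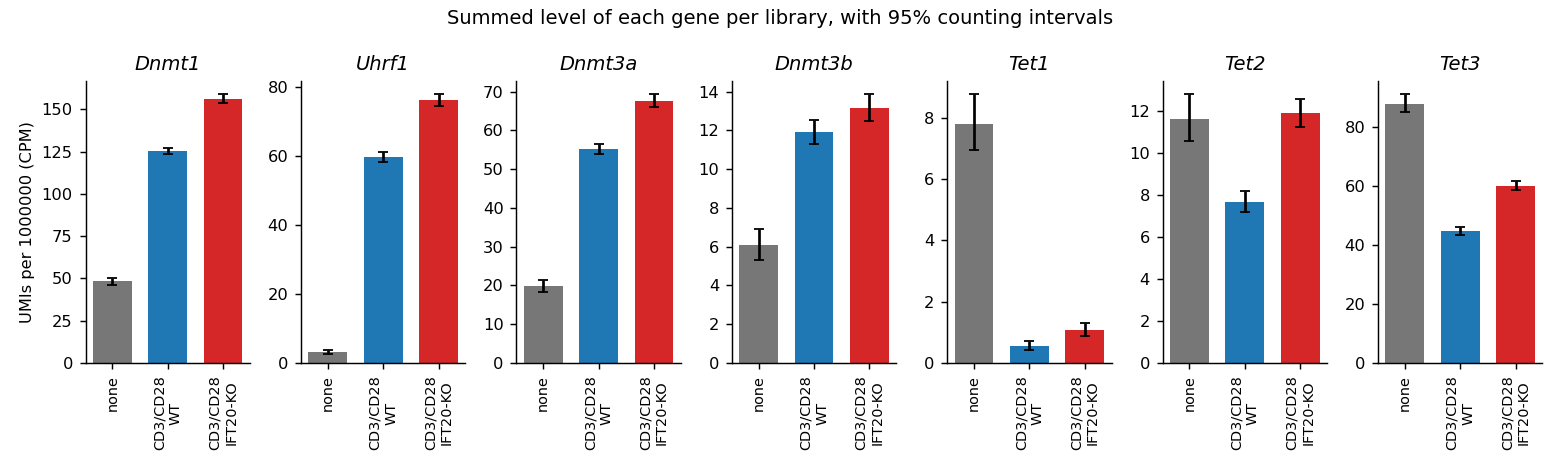
Level of each gene in UMIs per 1000000 (CPM, y axis, from 0 and scaled per panel) in the unstimulated WT (gray), stimulated WT (blue) and stimulated IFT20-KO (red) library; error bars are 95% Poisson intervals. The 4 writers are lowest in the unstimulated library, from 3.02 CPM for Uhrf1, and the 3 TET genes are lowest in stimulated WT, down to 0.556 CPM for Tet1, although as UMIs per cell Tet2 and Tet3 are lowest in the unstimulated library.

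As a log2 ratio of stimulated over unstimulated WT, *Uhrf1* was higher by 4.31 (4.04 to 4.59), a 19.8-fold difference. *Dnmt3a* was higher by 1.48 (1.37 to 1.59), *Dnmt1* by 1.38 (1.31 to 1.45) and *Dnmt3b* by 0.97 (0.77 to 1.18). These compare with a median of -0.089 over the 13297 genes with at least 10 UMIs. Of the 7 genes, 3 were at or past 2-fold higher (*Uhrf1*, *Dnmt3a*, *Dnmt1*), where 19.3% of all genes were (*Dnmt3b* joins them at 1.10 with median-ratio scaling), and 1 was at or past 2-fold lower (*Tet1*), where 23.0% were. Only 1.23% of the genes had a ratio as high as that of *Uhrf1*. *Tet1* was at -3.81 (-4.22 to -3.42), below all but 1.88% of the genes.

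*Tet3*, at -0.98 (-1.04 to -0.91), and *Tet2*, at -0.60 (-0.77 to -0.43), were lower as fractions of the library, but counted as UMIs per cell without scaling both were higher after stimulation, by 0.38 and 0.75 on the log2 scale. More UMIs were counted per stimulated cell, and on that count the median gene was higher by 1.26. With 1 library per group, the RNA content of the cells and the yield of the library cannot be told apart. With every cell thinned to 1400 UMIs, *Tet3* and *Tet2* were at -0.44 and -0.12. *Tet1* was lower and the 4 writers higher on every one of these counts. Per cell, writers had 0.356 UMIs before and 2.98 after stimulation and TET genes 0.497 and 0.626.

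**Figure D2:**
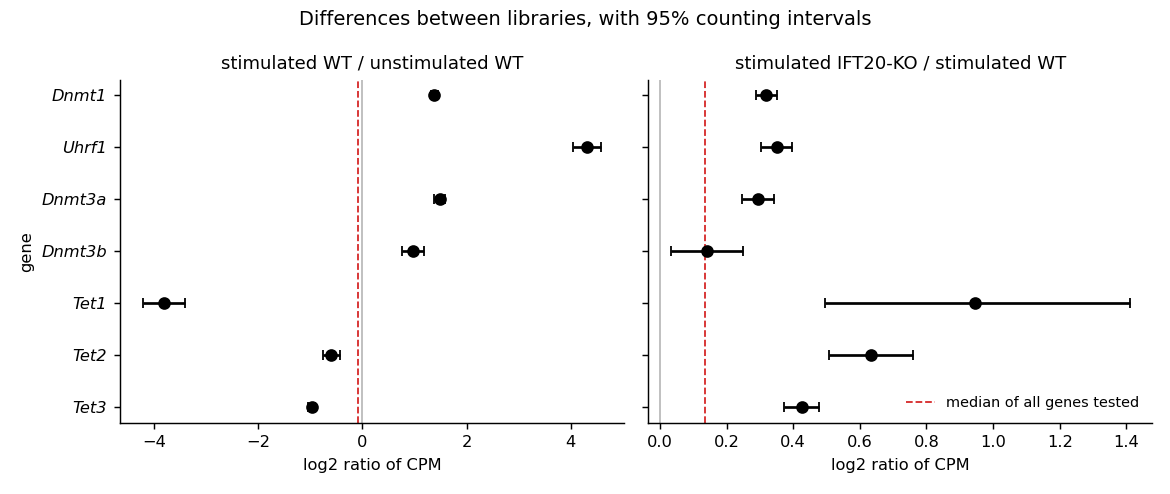
Log2 ratio of CPM (x axis) of each gene for stimulated over unstimulated WT (left) and stimulated IFT20-KO over stimulated WT (right), with 95% counting intervals; the dashed red line is the median of all genes tested. On the left the 4 writers lie above the median and the 3 TET genes below it, although Tet2 and Tet3 lie above 0 when counted as UMIs per cell. On the right all 7 points lie above 0, and Dnmt3b, at 0.14, lies on the median, but per cell without scaling Dnmt1, Dnmt3a, Dnmt3b, Uhrf1 and Tet3 lie below 0, and Dnmt3b also does with median-ratio scaling.

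To compare how many cells carried each transcript, every cell was thinned at random to 1400 UMIs, which left out 801, 421 and 0 shallower cells. In the order of the plot of levels, *Dnmt1* was then found in 6.31%, 16.3% and 22.0% of cells, against 18.9%, 61.1% and 58.1% without thinning. *Uhrf1* was found in 0.387%, 7.47% and 10.9% of thinned cells, against 1.16%, 35.1% and 34.0% without thinning. The order of the stimulated libraries thus turned with thinning for both genes, and the thinned shares had the order of the CPM. *Dnmt3a* was found in 2.74%, 8.65% and 11.6% of thinned cells, and *Tet3* in 11.2%, 8.25% and 11.9%. Without thinning, *Tet3* was in 31.4%, 38.4% and 35.1% of cells and *Dnmt3a* in 8.47%, 41.7% and 36.6%. More of the thinned cells held a writer after stimulation, while *Tet3* was in fewer stimulated WT cells. The order of *Tet3* between the unstimulated and IFT20-KO shares goes against its CPM and is not read. *Dnmt3b* was in at most 2.29% of the thinned cells of any library. *Tet2* was in 1.66%, 1.53% and 2.82% of thinned cells. At 1400 UMIs its IFT20-KO share was thus above the unstimulated one, although the CPM of these 2 libraries did not differ beyond counting error. Among cells with at least 4000 UMIs, thinned to 4000, the order turned. *Tet2* was then in 4.35% (3.82% to 4.93%) of unstimulated and 3.56% (3.15% to 4.02%) of IFT20-KO cells, and *Tet3* in 25.4% and 16.3%. The order of the *Tet2* shares is therefore not read.

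Free RNA can give a cell a UMI of a gene it does not express. *Cd79b*, a B cell receptor component, was found in 1.05%, 0.616% and 0.833% of unthinned cells, at the median depths given above, and *Cd79a* in 0.374%, 0.333% and 0.187%. The unstimulated share of *Uhrf1*, 1.16% (0.936% to 1.42%), and the stimulated shares of *Tet1*, 0.636% in WT and 0.790% in IFT20-KO cells, were near that of *Cd79b* and cannot be told apart from background by their size, so the 19.8-fold ratio of *Uhrf1* is against a level near background. The unstimulated share of *Tet1*, 3.36%, was above both.

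The few *Uhrf1* UMIs of the unstimulated library were spread unevenly. Of its 112 UMIs, 89 lay in cells with a single *Uhrf1* UMI, and the remaining 23 in 4 cells. Those 4 cells had a median of 46.5 S-phase list UMIs per 10000, against 6.83 in the 7938 cells with no *Uhrf1* UMI, and a median depth of 21493 UMIs. 3 of the 4 had a UMI of the cycling gene *Mki67*, which occurred in 22 of those 7938 cells. The 89 cells with a single UMI had a median of 7.02 list UMIs per 10000, about that of the cells with none. Of these 89 cells, 30 (33.7%) had a *Dnmt1* UMI, against 18.7% of the cells with none. These shares are without thinning, and the cells with a single *Uhrf1* UMI were deeper, with a median of 5302 UMIs against 4619.

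Within the stimulated WT cells the maintenance pair varied most with S-phase transcripts, *Dnmt3b* varied less, and *Dnmt3a*, *Tet2* and *Tet3* hardly did. *Tet1* had too few UMIs to read. Cells of each library were ranked by the UMIs of 41 S-phase genes (with *Uhrf1* taken out of the list) per 10000 UMIs and split into 5 equal groups. In stimulated WT cells *Uhrf1* was at 13.2, 24.5, 38.6, 65.9 and 153.8 CPM from the lowest to the highest group, and the ends differed by 3.54 (3.37 to 3.71) on the log2 scale. *Dnmt1* was at 61.4, 83.8, 114.3, 153.1 and 210.5 CPM, the ends differing by 1.78 (1.69 to 1.86). Each step was upward for both genes, and the highest group held 51.8% of all *Uhrf1* UMIs and 33.7% of the *Dnmt1* UMIs with 20.1% of the UMIs of the library. *Dnmt3b* was also higher at each step, by 0.46 (0.21 to 0.71) in all.

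*Dnmt3a* was at 54.2, 57.1, 52.5, 55.7 and 56.7 CPM in the same groups, and its ends differed by 0.066 (-0.048 to 0.18). *Tet2* was at 7.85 in the lowest and 7.74 CPM in the highest group, and *Tet3* at 44.1 and 49.2 CPM. For *Dnmt3a* and *Tet2* no difference along the list was detectable at this depth. Along 52 genes of the G2/M list the log2 ratio between the ends was 2.57 (2.43 to 2.71) for *Uhrf1* and 1.21 (1.13 to 1.30) for *Dnmt1*, while that of *Dnmt3a* was -0.036 (-0.16 to 0.084).

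The groups of lowest S-phase signal still differed from unstimulated cells. In the lowest group of stimulated WT cells *Dnmt3a* was 2.74-fold above the whole unstimulated library (log2 1.45, 1.32 to 1.59) and in the highest group 2.86-fold. *Dnmt1* was 1.28-fold above it (log2 0.35, 0.25 to 0.45) in the lowest and 4.37-fold in the highest group. The *Dnmt3a* difference with stimulation was therefore of like size at both ends, while that of *Dnmt1* was mostly in cells with more S-phase transcripts. *Uhrf1* was 4.39-fold above the unstimulated level in the lowest group and 51.0-fold above it in the highest. *Tet3* was 1.79-fold below the unstimulated level in the highest group and, at 44.1 CPM, lower still in the lowest. All folds of this paragraph are of CPM, and UMIs per cell in these groups are not reported here. Over the whole libraries *Tet3* went the other way per cell, with 0.407 UMIs in unstimulated and 0.529 in stimulated WT cells.

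In IFT20-KO cells the pattern was similar for the maintenance pair, with log2 ratios between the ends of 2.45 (2.34 to 2.57) for *Uhrf1* and 1.43 for *Dnmt1*. In this library the median depth also went from 9299.5 UMIs in the lowest to 2817.5 in the highest group. Among cells with at least 4000 UMIs the ratios were 2.64 and 1.49, and those of *Dnmt3a* and *Tet3* went from 0.40 and 0.69 to 0.0048 and 0.18. In unstimulated WT cells *Dnmt1* was at 44.0 CPM in the lowest and 57.4 in the highest group, and *Uhrf1* had 17 and 39 UMIs there, in 1.06% and 1.31% of the cells.

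**Figure D3:**
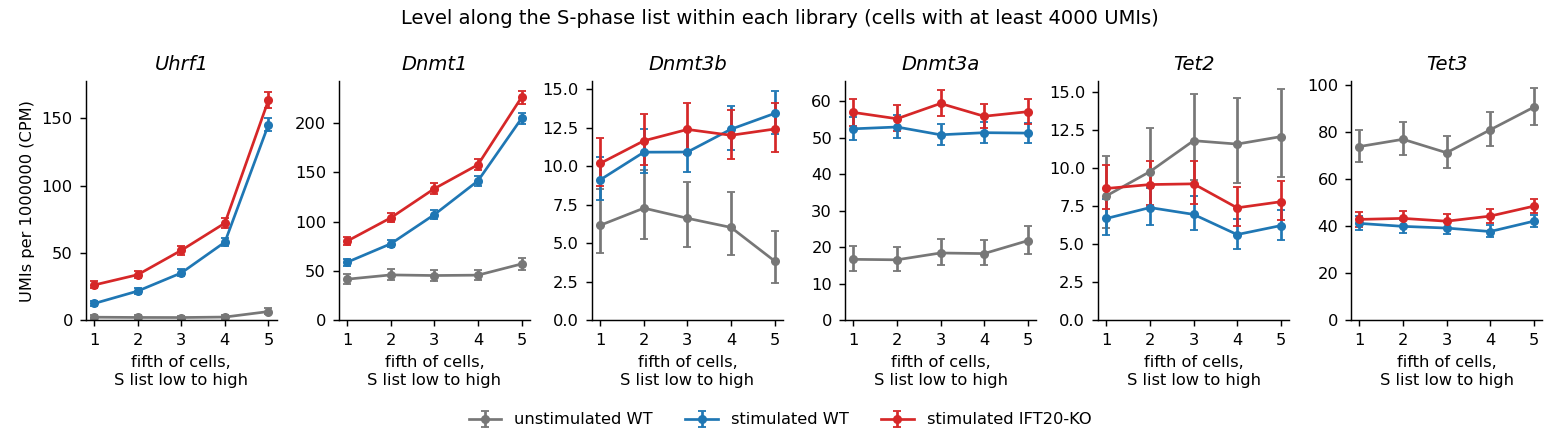
CPM (y axis, from 0) in 5 equal groups of cells ranked by 41 S-phase genes (x axis, low to high), among cells with at least 4000 UMIs, for unstimulated WT (gray), stimulated WT (blue) and stimulated IFT20-KO (red) cells; bars are 95% Poisson intervals. Uhrf1 and Dnmt1 are higher at every step in both stimulated libraries, in WT from 12.5 to 145.2 and from 58.9 to 204.5 CPM, while Dnmt3a stays between 50.7 and 59.3 CPM in both.

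Pairs of transcripts within single cells are given as a description. Among 7604 stimulated WT cells thinned to 4000 UMIs, 586 held both *Dnmt1* and *Uhrf1*, against 449 from the product of their shares, a ratio of 1.30 (1.20 to 1.41). The ratio was 1.22 (1.13 to 1.30) in IFT20-KO and 1.87 (1.02 to 3.13) in unstimulated cells, the latter from 14 cells. *Dnmt1* and *Dnmt3a* shared 460 stimulated WT cells against 456 by the product. Other pairs also had a ratio whose interval excluded 1. All pairs of the 7 genes were examined in all 3 libraries, and some 95% intervals exclude 1 by counting error alone. *Dnmt3a* and *Tet3* were at 1.20 (1.07 to 1.35) in IFT20-KO but 1.05 (0.91 to 1.20) in stimulated WT cells. In unstimulated cells *Dnmt3b* and *Tet1* were at 2.46 (1.13 to 4.68) from 9 cells, and *Dnmt1* and *Dnmt3b* at 0.51 (0.25 to 0.91) from 11. In the same 7604 cells, the genes with the highest Pearson r to *Uhrf1* were *Stmn1* at 0.25, *Pclaf*, *H2afz*, *Top2a* and *Hmgb2*, and to *Dnmt1* *Mcm3* at 0.16, *Mcm6*, *Dut*, *H2afz* and *Hmgb2*. These r values are weak and the cells share 1 library.

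Cells were also ranked by 7 naive T cell markers, among them *Ccr7*, *Tcf7* and *Lef1*. In stimulated WT cells *Ccr7* gave 62211 of the 115958 UMIs of these markers and *Lef1* 24359, so the ranking there was mostly by *Ccr7*. *Ccr7* itself was at 721 CPM in unstimulated and 532 in stimulated WT. Among stimulated WT cells with at least 4000 UMIs, *Dnmt3a* was at 64.5 CPM in the group with the fewest and 36.5 in the group with the most naive transcripts (log2 -0.82, -0.96 to -0.69), and it was lower at each step. The same was seen in IFT20-KO cells of that depth, where it went from 64.1 to 47.4 CPM. *Tet3* did not differ between these ends in stimulated WT cells (log2 0.054, -0.083 to 0.19) and was higher by 0.31 (0.16 to 0.46) in IFT20-KO cells. With all cells kept, the *Dnmt3a* ratio was -0.48 in WT but 0.18 in IFT20-KO, where the median depth went from 11059.5 to 2624 UMIs along the ranking.

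In unstimulated cells with at least 4000 UMIs, *Dnmt3a* was likewise lower at the naive end, at 14.2 against 24.9 CPM, and *Tet3* was higher, at 87.0 against 71.0 CPM. Of the 8031 unstimulated cells, 343 had a UMI of *Foxp3*, the regulatory T cell factor. In them *Dnmt3a* had 27.5 CPM and in the others 19.4, and the log2 ratio of 0.50 (0.040 to 0.93) rests on 46 UMIs. The intervals of the other 6 genes included 0.

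Depth of a cell moved with the levels. In stimulated WT cells under 4000 UMIs *Tet3* was at 164.7 CPM and in deeper cells at 40.1. *Tet2* was at 36.5 and 6.55 CPM, and *Dnmt3a* at 147.1 and 51.7 CPM. *Uhrf1*, by contrast, was at 73.0 and 59.2 CPM. All 7 genes had the higher level in the shallow cells, as did the median gene, whose log2 ratio of deep over shallow cells was -0.86. *Tet2* (-2.48), *Tet3* (-2.04) and *Dnmt3a* (-1.51) lay below that median, and *Dnmt1* (-0.56) and *Uhrf1* (-0.30) above it. In IFT20-KO cells these named genes had the same order, from *Tet2* at -1.92 to *Uhrf1* at -0.42. The median gene was at -0.64 there, and *Dnmt1*, at -0.66, lay just below it.

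The shallow stimulated WT cells had 9.72% mitochondrial and 13.6% ribosomal protein UMIs, against 1.30% and 29.9% in the deeper cells. The nuclear RNA *Malat1* was at 8749 and 1142 CPM there. The part of these differences in the members' levels was not tested. When the WT libraries were compared within each depth class, the direction of *Tet2* and *Tet3* with stimulation depended on the class. Depth was not matched within a class. Median depth was 5210 UMIs in unstimulated and 13951.5 in stimulated WT cells of the deep class, and 2988 and 1828 in the shallow class. Among cells of both WT libraries with 4000 UMIs or more, *Tet2* was at -0.71 and *Tet3* at -0.97, and among cells with fewer they were at 1.20 and 0.34, beside a median gene of 0.36. The 4 writers were higher and *Tet1* lower after stimulation in either class.

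**Figure D4:**
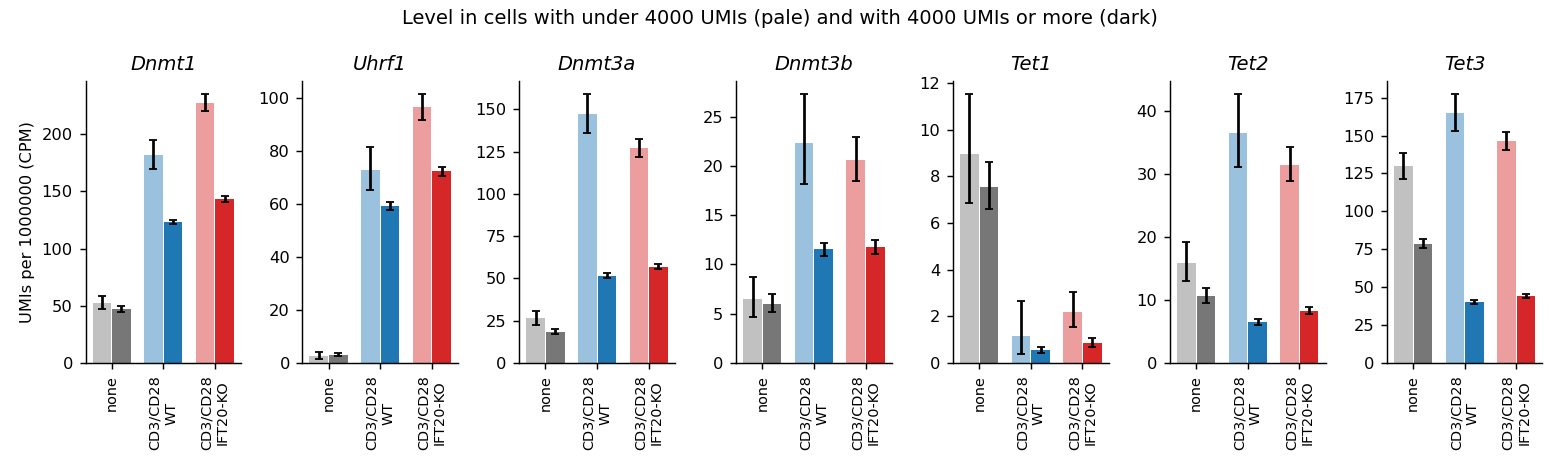
CPM (y axis, from 0 and scaled per panel) in cells with under 4000 UMIs (pale bars) and with 4000 UMIs or more (dark bars) of the unstimulated WT (gray), stimulated WT (blue) and stimulated IFT20-KO (red) library; error bars are 95% Poisson intervals. In both stimulated libraries the pale bar is above the dark one for each gene, for Tet3 in WT at 164.7 against 40.1 CPM.

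The genotypes were compared after stimulation. Over stimulated WT, the log2 ratio in stimulated IFT20-KO cells was 0.35 (0.30 to 0.40) for *Uhrf1*, 0.32 (0.29 to 0.35) for *Dnmt1*, 0.29 (0.25 to 0.34) for *Dnmt3a* and 0.14 (0.033 to 0.25) for *Dnmt3b*. It was 0.43 (0.37 to 0.48) for *Tet3*, 0.63 (0.51 to 0.76) for *Tet2* and 0.95 (0.49 to 1.41) for *Tet1*. For the writers, *Tet1* and *Tet3* these ratios were smaller in size than those with stimulation, and for *Tet2* about as large. None of the 7 was past 2-fold, where 3.92% of all 13504 genes were higher and 1.67% lower. All 7 were above 0, but as UMIs per cell without scaling *Dnmt1*, *Dnmt3a*, *Dnmt3b*, *Uhrf1* and *Tet3* were below 0, as was *Dnmt3b* with median-ratio scaling. As UMIs per cell *Tet2* was at 0.0059, with almost no difference left, and *Tet1* at 0.32. Of all genes 68.3% were above 0, with a median of 0.14, which the interval of *Dnmt3b* included. The *Tet1* ratio is between shares near background, and *Cd79b* was at 0.539 and 1.17 CPM in the same libraries.

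The genotypes were also compared within each depth class, since 47.8% of the IFT20-KO and 23.2% of the stimulated WT cells had under 4000 UMIs. Among cells with 4000 UMIs or more, *Uhrf1* was higher by 0.29 (0.24 to 0.34), *Dnmt1* by 0.22 (0.18 to 0.25) and *Tet2* by 0.34 (0.20 to 0.49), with the median gene at 0.049. *Dnmt3a* was higher by 0.14 and *Tet3* by 0.15. Among cells with fewer UMIs, *Uhrf1* and *Dnmt1* were again higher, by 0.40 and 0.32, whereas *Dnmt3a* was at -0.21 (-0.34 to -0.082), *Tet3* at -0.17 (-0.29 to -0.050), and *Tet2* at -0.21 with an interval that included 0. The median gene of these shallow cells was at -0.058, which the interval of *Tet3* included. The maintenance pair was thus higher in both classes. The sign of *Dnmt3a* and *Tet3* turned between them, but *Tet3* in shallow cells did not differ from the median gene beyond counting error. Neither depth nor quality was matched within a class. Shallow cells had a median of 1828 UMIs in stimulated WT and 2419 in IFT20-KO, with 9.72% and 5.49% mitochondrial UMIs. The part of this in the ratios was not tested.

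S-phase transcripts also differed between the genotypes. When the limits of the 5 groups of stimulated WT cells with at least 4000 UMIs were applied to IFT20-KO cells of that depth, 27.1% of them lay in the highest range and 9.14% in the lowest, against 20.0% each in WT. Within the highest range *Uhrf1* was at 143.3 CPM in IFT20-KO and 145.1 in WT cells (log2 -0.018, -0.084 to 0.047). Within the lowest range it was at 25.5 and 12.5 CPM (log2 1.03, 0.75 to 1.32). *Dnmt1* showed the same order, with 211.5 and 204.4 CPM (log2 0.049, -0.0053 to 0.10) in the highest and 74.9 and 58.9 CPM (log2 0.35, 0.20 to 0.50) in the lowest range. In ranges 2 and 3 from the lowest *Uhrf1* was at 0.35 and 0.16 and *Dnmt1* at 0.17 and 0.095. Both maintenance genes were therefore higher in IFT20-KO cells in the 3 lower ranges, with intervals above 0. In range 3, however, the intervals of *Dnmt1* (0.0088 to 0.18) and *Uhrf1* (0.012 to 0.31) included the median gene, at 0.027. No difference beyond counting error was detectable in the 2 highest ranges. S-phase signal was not matched within a range. In the lowest range the smallest S-phase list value of a cell was 1.20 in WT and 3.41 in IFT20-KO cells. The part of this in the ratios was not tested.

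*Dnmt3a* differed least in the lowest range, at 0.0033 (-0.17 to 0.18), and was higher by 0.13 to 0.17 in the other 4. *Tet3* was higher by 0.033 to 0.19 across the ranges and *Tet2* by 0.26 to 0.50. Taken between the mean CPM over the 5 ranges, to which the highest range adds most for the maintenance pair, the log2 ratio was 0.11 for *Uhrf1*, 0.099 for *Dnmt1*, 0.12 for *Dnmt3a*, 0.13 for *Tet3* and 0.35 for *Tet2*, with median genes of 0.024 to 0.034 within the ranges. This comparison was added after the levels had been seen.

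**Figure D5:**
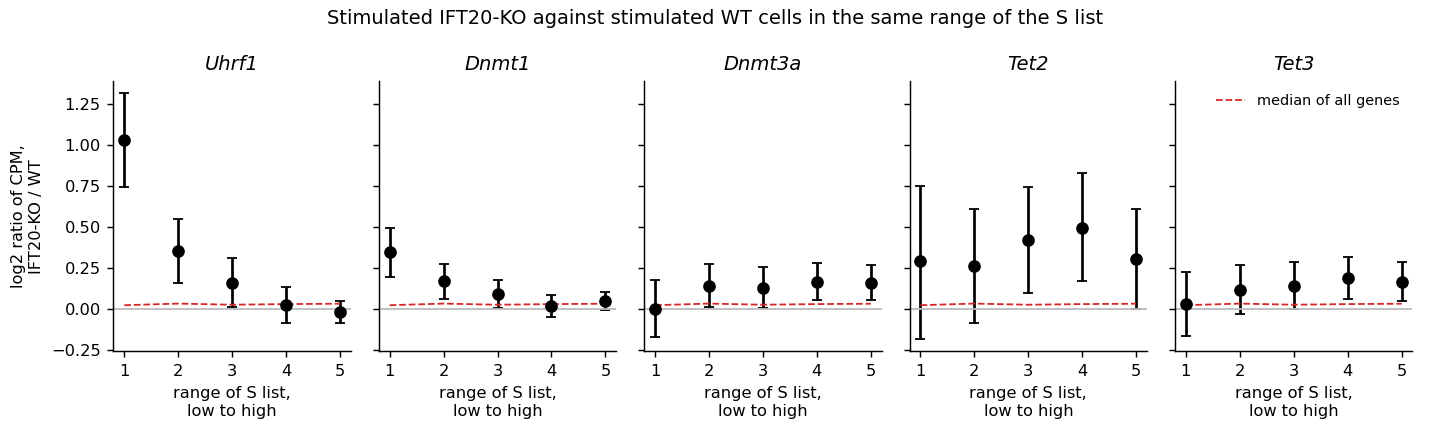
Log2 ratio of CPM of stimulated IFT20-KO over stimulated WT cells (y axis) within the same 5 ranges of the S-phase list (x axis, low to high), cells with at least 4000 UMIs; bars are 95% counting intervals and the dashed red line is the median of all genes. Uhrf1 goes from 1.03 in the lowest to -0.018 in the highest range and Dnmt1 from 0.35 to 0.049, while Dnmt3a, Tet2 and Tet3 show no such decline.

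Of 12 tested partners of the writers, 4 were past 2-fold higher (19.3% of all genes) and none lower (23.0% of all genes), with 6 above and 6 below 0 and a list median of 0.0047. Beside them, 37 of the 42 S-phase list genes, *Uhrf1* included, were past 2-fold higher with stimulation, with a median of 2.63. The lists overlap, with *Pcna* in both, so they are not separate sets. Whether other genes are shared is not reported here. The part of S-phase entry in the differences of the partners was not tested. *Cdca7* was higher by 3.76 and *Hells* by 3.63; the proteins form a remodeling complex needed for methylation of packed chromatin. *Lig1*, the ligase of the lagging strand that binds UHRF1, was higher by 2.96, and *Pcna*, the replication clamp that binds DNMT1, by 1.30. The deubiquitinase gene *Usp7*, whose product stabilizes DNMT1 and UHRF1, was at -0.58, and *Uhrf2*, the paralog of *Uhrf1*, went from 25.7 to 19.7 CPM (-0.38). The histone deacetylase genes *Hdac1* and *Hdac2* were at -0.59 and 0.81, and the other 4 tested genes lay between -0.13 and 0.057. Counted as UMIs per cell every ratio with stimulation is 1.35 higher, which puts all 12 above 0.

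Of 19 tested genes acting with or after the TET enzymes, 8 were past 2-fold higher and 4 lower, beside 19.3% and 23.0% of all genes, with a median of 0.58. The uracil glycosylase gene *Ung* was higher by 2.83, *Neil3* by 2.17 (1.29 to 3.20) and *Gadd45b* by 2.15. *Neil3* had 11 unstimulated UMIs (0.296 CPM), below the 2.48 CPM of *Cd79b* in that library. *Apex1*, the abasic site endonuclease gene, was higher by 1.84, *Gadd45g* by 1.66 and *Tdg* by 1.61. *Cxxc5*, from 30 unstimulated UMIs, and *Nthl1* were also past 2-fold. *Idh1*, one of the enzymes that make the TET cofactor 2-oxoglutarate, was at -2.22, *Gadd45a* at -1.79, *Apobec1* at -1.48 and *Smug1* at -1.11. The glycosylase genes *Neil1* and *Neil2* were at -0.68 and -0.93, so base excision genes of the list lay on both sides of 0. *Neil2* rests on 20 unstimulated and 33 stimulated UMIs (-1.78 to -0.054). *Ogt*, whose product binds TET proteins, was at -0.98, close to *Tet3*, and as UMIs per cell *Ogt*, *Smug1*, *Neil1* and *Neil2* lie above 0.

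Among 9 proteins that read methylated or unmethylated CpG, *Mbd3* (1.78) and *Kdm2b* (1.66) were past 2-fold higher, and *Zbtb4* (-3.01) and *Mbd2* (-1.03) were among those past 2-fold lower, with a list median of -0.25, but as UMIs per cell *Mbd2* lies above 0. None of the 8 tested genes of the methyl donor cycle passed 2-fold. The largest there were *Ahcy* at 0.96, *Mtrr* at 0.96 and *Ahcyl1* at 0.83. Between the genotypes only *Neil3*, higher by 1.17 (0.89 to 1.46) from 156 and 320 UMIs, and *Apobec2*, at -1.07 (-1.44 to -0.70) from 207 and 90 UMIs, passed 2-fold among the 48 tested genes of the 4 lists, a share near that of all genes (3.92% higher and 1.67% lower). Medians of these lists between the genotypes lay from 0.13 to 0.21, beside 0.14 for all genes.

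Over the 2 log2 ratios together, the genes nearest to *Uhrf1* among 3435 with at least 50 CPM in any library were *Phactr2*, *Pclaf*, *Hivep3*, *Ccdc50* and *Cd200*, at distances of 0.065 to 0.24. *Dnmt1* was nearest to *Canx*, *Heatr1*, *Hdlbp*, *Ppat* and *Parp1*, and *Dnmt3a* to *Hspa5*, *Icos*, *Cdca7l*, *Ide* and *Gstt2*. *Dnmt3b* was nearest to *Pspc1*, *Gm10076*, *Abce1*, *Srpr* and *Rfc1*. *Tet1* had no close neighbor among the 3435 genes, the nearest being *St8sia6* at 0.42, then *Igfbp4*, *Nsg2*, *Txnip* and *Ifi208*. Genes under 50 CPM in every library, as *Tet1* itself is, were not searched. *Tet2* was nearest to *Etnk1*, *Inpp4b*, *Cbx3*, *Trpm7* and *Mycbp2*, and *Tet3* to *Ankrd10*, *Usp3*, *Fam53b*, *2810474O19Rik* and *Gsk3b*. The distance is over 3 libraries, and the ratios share the stimulated WT library.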

How the data were processed

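The authors aligned reads and counted UMIs with Cell Ranger (3.1.0 in the file headers, mm10), and deposited raw counts per gene and called barcode, without normalization. The labels name a 5′ kit and the paper's methods a 3′ kit. Whether counting used strand is not given in the sources used here.

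Here, barcodes needed over 200 genes and less than 15% of UMIs from mitochondrial genes, which left out 222, 417 and 12 barcodes, and counts were summed per library. CPM has exact Poisson, log2 ratios exact binomial and shares exact Clopper-Pearson intervals at 95%. A gene at 0 UMIs was set to 3 counts. No doublet caller was run. The lowest UMI count of a barcode was 500, 709 and 1493, so cell calling differed between libraries. Scripts used pandas 2.3.3, numpy 2.4.6, matplotlib 3.10.9 and scipy 1.17.1 under Python 3.11.15 and were tested on simulated data.

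The genes, the lists and the alternatives were chosen with earlier results of these data known. Named genes are the 7 genes, list genes at or past 2-fold, the 3 largest ratios of each of 4 pathway lists, *Ift20*, the 5 nearest genes by both ratios, and the 5 highest cell correlations of *Dnmt1* and *Uhrf1*. *Usp7*, *Uhrf2*, *Hdac1*, *Hdac2*, *Neil1*, *Neil2*, *Ogt*, *Malat1*, *Mki67* and the antisense genes with UMIs given were named after their values were seen. The other genes that overlap a member were named from the annotation. Some listed genes are not reported here.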

Additional observations from a re-analysis of the deposited data

How the results depend on the processing

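With 1 library per group, differences between mice, cultures and runs cannot be told apart from those of treatment and genotype, and rare transcripts (*Tet1*, and *Uhrf1* before stimulation) are limited by depth. No paired analysis was possible because each group has 1 library.

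Directions of all 7 genes in both comparisons held with all barcodes, the stricter filter (more than 1000 genes, under 10% mitochondrial UMIs), means of per-cell fractions, thinning to 1400 UMIs and stimulated cells with at least 4000 UMIs. Median-ratio scaling, which moved the median of all genes by 0.13 with stimulation and by -0.16 between genotypes, put *Dnmt3b* at -0.018 in IFT20-KO against WT. UMIs per cell moved these medians by 1.35 and -0.63, and thinning moved the first by 0.24. Genes 2-fold higher and lower with stimulation were then 58.5% and 6.40% of all (per cell) and 21.4% and 14.5% (thinned). Of the genes past 2-fold between genotypes, 70.1% were higher, against 54.3% with median-ratio scaling, 14.6% per cell, 81.2% thinned and 55.8% in stimulated cells with at least 4000 UMIs. Per cell, *Tet2* and *Tet3* were at 0.75 and 0.38 with stimulation, and in IFT20-KO against WT *Dnmt1* was at -0.31, *Dnmt3a* at -0.33, *Dnmt3b* at -0.49, *Uhrf1* at -0.28 and *Tet3* at -0.20. In cells under 4000 UMIs, chosen after seeing the data, *Tet2* and *Tet3* were at 1.20 and 0.34 with stimulation, and between genotypes *Dnmt3a* was at -0.21, *Dnmt3b* at -0.12, *Tet2* at -0.21 and *Tet3* at -0.17. Among IFT20-KO cells with at least 4000 UMIs the ratio of *Tet2* along the S-phase list was -0.15 in place of 0.45. Means of per-cell fractions put 1 gene (*Tet1*, 1 higher) past 2-fold between genotypes in place of 0, and with stimulated cells of at least 4000 UMIs 2 genes, *Tet1* and *Tet3*, were past 2-fold lower with stimulation in place of 1. *Dnmt3b* passed 2-fold higher with stimulation, making 4 genes in place of 3, with median-ratio scaling (1.10), per cell (2.32), with the stricter filter (1.01) and thinned (1.24). The causes were not tested.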
